A study of Mus musculus with 75 samples.

Results

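The 10 genes described here make, bind or destroy retinoic acid, and they were taken by name from a table of 26218 genes measured in 75 mouse libraries. They are the retinoic acid hydroxylases Cyp26a1, Cyp26b1 and Cyp26c1, the retinaldehyde reductase Dhrs3, the retinol dehydrogenase Rdh10, the retinaldehyde dehydrogenases Aldh1a1, Aldh1a2 and Aldh1a3, and the cellular retinoic acid binding proteins Crabp1 and Crabp2. The study compared germ cells of female and male embryos with primordial germ cell-like cells (PGCLCs), which are made from embryonic stem cells and cultured with or without factors that bring about the female fate. Messenger RNA was measured by SC3-seq, which sequences the 3′ ends of transcripts, and values are RPM, in which the reads of a gene are scaled to a common library size.

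Embryonic germ cells came from ICR:C57BL/6 mice in 11 groups of 2 libraries. Cells of E9.5, E10.5 and E11.5 carry no sex label, and cells of E12.5 to E15.5 are labelled female or male. Up to E13.5 the mice were Dppa3-EGFP Tg/0 and the cells were sorted for green fluorescence, and at E14.5 and E15.5 they were Ddx4-RFP Tg/0 and sorted for red fluorescence, so across that step stage and reporter cannot be told apart. All PGCLCs carried Prdm1-mVenus Tg/0 and Dppa3-ECFP Tg/0. They were sorted on the first reporter at day 0, grown on mitomycin-treated m220 feeder cells with forskolin and rolipram, and sorted on the second reporter after culture. From the 129S1:C57BL/6 line came 11 pairs of libraries, taken at day 0, under CT at day 3, and under each of CT, RA and RB at day 5, day 7 and day 9. In the published study CT is culture without added factor, RA is culture with retinoic acid, and RB is culture with retinoic acid and a bone morphogenetic protein (BMP). The labels do not spell these names out, and they give day 3 as the start of the factors. DBA/2:C57BL/6 PGCLCs, wild type (2 libraries a group) or Stra8-/- (4 libraries from the lines SK1, SK2 and SK3, of which SK1 gave 2), were taken under CT at day 3 and under RB at days 5, 7 and 9. A further 7 libraries stand alone: 0R3B of the 129S1:C57BL/6 line at day 9, and 6 of a C57BL/6 line that also carries Gtrosa26tm1Sor/0.

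Retinoic acid is formed from retinol in a pair of oxidation steps. RDH10 makes retinaldehyde, which DHRS3 can reduce back to retinol, and the ALDH1A enzymes oxidise retinaldehyde to retinoic acid. CRABP1 and CRABP2 bind retinoic acid in the cytoplasm, and CRABP2 is known to pass it to nuclear receptors, which sit on direct repeats of a short half-site in DNA. CYP26 enzymes break retinoic acid down, and Cyp26a1 and Dhrs3 are textbook targets of retinoic acid itself, which closes a feedback loop. In the fetal gonad retinoic acid is linked to the entry of female germ cells into meiosis through Stra8, and Cyp26b1 of the somatic cells of the fetal testis is known for removing it there.

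Libraries held an estimated 1080000 to 15600000 reads (median 3120000), a depth at which 3 reads stand at 0.192 to 2.78 RPM, and replicates correlated with Pearson r of 0.978 to 0.993. Such read floors and intervals cover counting error only. The labels do not say whether the libraries of a group came from separate cultures or animals, so every p-value speaks of library-to-library spread alone, which may be technical. All 8 germ cell markers checked were above 0 in every group. In the knockout, Stra8 stood at 1.72 to 10.98 RPM at day 5, 29.3 to 204 at day 7 and 77.9 to 483 at day 9, against 192 to 193, 1415 to 1439 and 1717 to 1813 in the wild type. The deleted part of Stra8 is not given in the sources used here, so the remaining 3′ signal checks nothing about the deletion.

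Differences are log2 fold changes of RPM + 1 with their standard errors (SE), which shrink the differences of weakly expressed genes. Tests were run on genes that 2 or more libraries of an experiment held at 5 RPM or above. A difference was called where its adjusted p was below 0.05 and its size on the log2 scale was 1 or more. The filter passed 5 of the 10 genes in the embryo (Rdh10, Aldh1a1, Aldh1a2, Crabp1 and Crabp2), 8 in the 129S1:C57BL/6 line (without Aldh1a1 and Aldh1a3) and 7 among the Stra8 libraries (without Cyp26c1 as well). In the 129S1:C57BL/6 line Cyp26c1 passed through exactly 2 libraries, 1 of RA and 1 of RB at day 7, and the libraries in which Cyp26b1 (8) and Dhrs3 (11) reached the level were also all of RA or RB. Of the 13 such libraries of Cyp26a1, 12 were of RA or RB. These 4 genes therefore entered the tests through the groups in which they were high, and their calls against CT describe them but carry no support of their own. The same holds for Cyp26a1, Cyp26b1 and Dhrs3 in the Stra8 libraries, which reached the level under RB alone, and for Aldh1a1 in the embryo, where 8 of 9 such libraries were male. Aldh1a2 reached the level in 3 Stra8 libraries, both wild-type ones of RB day 9 and 1 knockout one of CT day 3. Its calls with that wild-type group carry no support of their own either. Aldh1a3 was at 0.353 RPM or less in all 75 libraries. In bulk RNA a smaller number of expressing cells and less RNA per cell cannot be told apart.

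Cyp26a1 (Entrez 13082) lies on chromosome 19 from 37697738 to 37701536 in mm10, 4417 bases past the end of Cyp26c1 (Entrez 546726, 37685112 to 37693320). Its promoter is shown because Cyp26a1 gave the largest log2 differences from CT of these genes and because it holds the pattern that retinoic acid receptors are known to bind. The RefSeq table (GRCm38.p6) has a window of 300 bases, from 250 before to 50 after a transcript's start, for 7 of the 10 genes (10 windows). Capitals in the first line mark the half-sites of a direct repeat, and the line gives chr19:37697558-37697857 on the plus strand, 5′ to 3′.
Cyp26a1 promoter: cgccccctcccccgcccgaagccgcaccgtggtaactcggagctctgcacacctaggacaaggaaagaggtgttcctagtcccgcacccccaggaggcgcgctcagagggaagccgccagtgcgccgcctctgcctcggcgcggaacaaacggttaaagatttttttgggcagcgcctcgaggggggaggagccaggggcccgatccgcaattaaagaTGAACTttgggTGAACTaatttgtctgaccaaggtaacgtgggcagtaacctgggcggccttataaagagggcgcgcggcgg
The repeat runs from 32 to 16 bases before the start used for the window and reads on the minus strand (chr19:37697776-37697792). That start lies inside the gene span given above, and so does the repeat. It is set here beside the repeat of Rarb, the retinoic acid receptor beta gene (minus strand, chr14:16575513-16575529), with the half-sites in capitals and the spacer of 5 bases in lower case.
Cyp26a1 repeat: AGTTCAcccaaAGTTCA
Rarb repeat: GGTTCAccgaaAGTTCA
The search took the half-sites AGGTCA and its known variants, namely AGTTCA as well as GGTTCA together with GGGTCA, on both strands with spacings of 1, 2 and 5 bases. Spacing 5 occurred in 32 of 32851 promoter windows (0.0974%), spacing 2 in 88 (0.268%) and spacing 1 in 73 (0.222%). Of the windows of the 10 genes only that of Cyp26a1 held such a repeat. The Cyp26b1 window (minus strand, chr6:84593761-84594060), shown for contrast because Cyp26b1 was also high under RA and RB, has none of the half-sites even singly, which 43.7% of all windows do have. The windows of Dhrs3, Cyp26c1, Crabp1 and Aldh1a2 have none either.
Cyp26b1 promoter: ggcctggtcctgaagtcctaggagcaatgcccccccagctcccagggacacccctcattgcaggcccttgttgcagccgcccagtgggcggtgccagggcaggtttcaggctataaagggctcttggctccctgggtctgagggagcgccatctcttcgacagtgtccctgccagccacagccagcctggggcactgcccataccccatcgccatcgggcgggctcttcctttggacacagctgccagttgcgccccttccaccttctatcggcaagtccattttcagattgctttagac
A match is a description of letters and not a binding site, and its absence from these 300 bases says nothing about other positions.

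Without added factor the genes that break down retinoic acid were close to silent in PGCLCs of the 129S1:C57BL/6 line. Cyp26a1 was at 0.587 and 0 RPM at day 0, 0 and 0.368 at day 3, 0.367 and 0 at day 5, 1.47 and 2.16 at day 7, and 1.93 and 7.11 at day 9. The day 9 libraries were both above all earlier CT libraries except that 1 of them lay within the day 7 range. From day 3 to day 9 under CT the log2 difference of Cyp26a1 was 2.06 (SE 0.35, adjusted p 0.00114), and Crabp1, a cytoplasmic binding protein for retinoic acid, differed by 1.30 (SE 0.32, adjusted p 0.0254). These were the 2 of 8 tested genes called, where 2.25% of all genes were called. The Cyp26a1 call was lost without CT day 9 library 2, the higher one (1.32, adjusted p 0.0583), and with a pseudocount of 5 RPM (0.82). The Crabp1 call was lost without any of 3 of the 4 libraries (0.83 to 1.34, adjusted p 0.102 to 0.343). Crabp1 stood at 3.81 and 9.79 RPM at day 0, 12.498 and 25.1 at day 3, 24.6 and 24.8 at day 5, 34.8 and 28.8 at day 7, and 44.0 and 46.6 at day 9. Its groups of day 0, day 3 and day 9 did not overlap. From day 0 to day 3 it was the 1 gene of the 8 called (log2 difference 1.38, SE 0.32, adjusted p 0.00766), against 5.47% of all genes, and the call was lost without day 0 library 1 (0.80, adjusted p 0.219) or CT day 3 library 2 (0.91, adjusted p 0.199).

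With RA, Cyp26a1 rose at day 5 and was higher at each later time. Its values were 37.9 and 46.9 RPM at day 5, 254 and 239 at day 7, and 488 and 521 at day 9. All 6 RA libraries lay above all CT libraries. The log2 differences from CT were 5.21, 6.47 and 6.70 (SE 0.35 each), with adjusted p of 7.61e-10, 6.55e-12 and 3.01e-12. RB gave 33.1 and 47.8 RPM at day 5, 336 and 378 at day 7, and 195 and 228 at day 9, so here the highest libraries were those of day 7. The log2 differences from CT were 5.13, 6.997 and 5.44 (SE 0.35 each), with adjusted p of 1.07e-09, 1.12e-12 and 1.2e-11. RA and RB of 1 day were compared with the same CT libraries, so these differences share their controls.

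**Figure D1:**
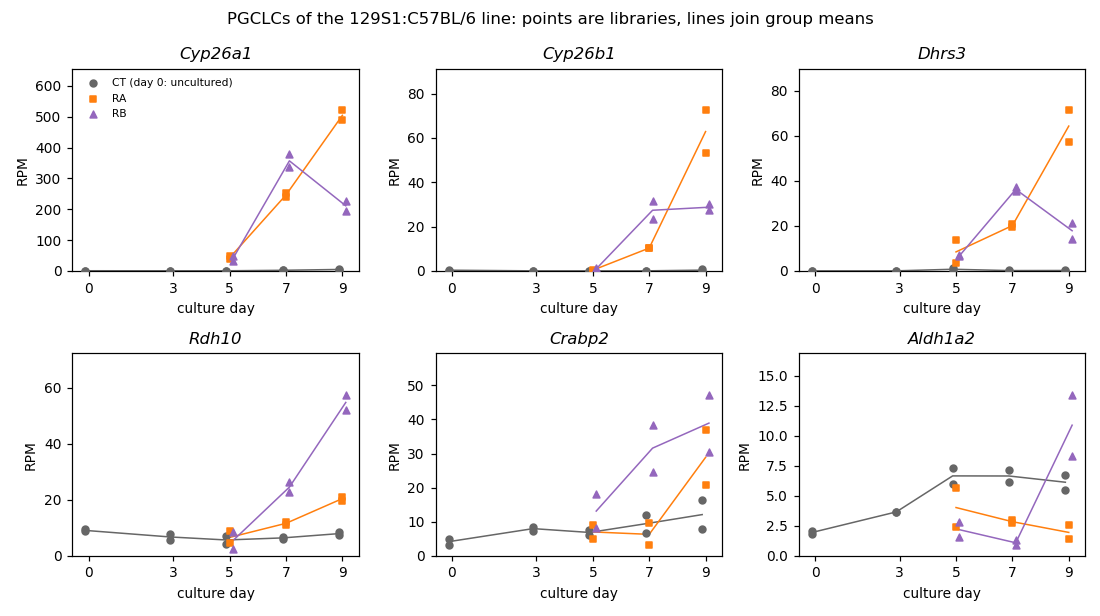
RPM (linear axis) of 6 genes by culture day in PGCLCs of the 129S1:C57BL/6 line, with points for libraries, lines through group means, and symbols for CT, RA and RB. Cyp26a1 reaches 488 and 521 RPM under RA at day 9 and stands at 195 and 228 under RB, while CT stays at 7.11 or less.

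Dhrs3, which turns retinaldehyde back into retinol, moved with Cyp26a1 in time. It was at 1.10 RPM or less in the CT and day 0 libraries. RA gave 3.28 and 13.6 at day 5, 19.3 and 20.9 at day 7, and 57.3 and 71.4 at day 9, and RB gave 6.88 and 6.48, 35.3 and 37.1, and 21.4 and 14.2. No RA or RB library of Dhrs3 overlapped CT of its day. The log2 differences of RA from CT were 2.25, 4.24 and 5.82 (SE 0.44 each; adjusted p 0.0173, 1.02e-06 and 2.29e-09), and those of RB were 2.21, 5.06 and 4.01 (SE 0.44 each; adjusted p 0.0106, 1.24e-08 and 5.61e-08). The day 5 calls of Dhrs3 rest on single libraries. The RA call was lost without RA library 2 (1.37, adjusted p 0.563) or CT library 2 (1.91, adjusted p 0.26), and the RB call without either RB library (2.17 and 2.25, adjusted p 0.0808 and 0.111) or CT library 2 (1.87, adjusted p 0.181). Cyp26a1 and Dhrs3 were the 2 of 8 tested genes called at day 5 in each comparison, where 0.244% of all genes were called for RA and 0.674% for RB. Both entered the tests mainly through RA and RB libraries, so nothing is read from the distance of this count to these shares.

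Cyp26b1, the hydroxylase named above for the fetal testis, came later. CT held 0 RPM in every library at days 3, 5 and 7, and 0.643 and 0 at day 9. Under RA it was at 0.597 and 0 RPM at day 5, 10.1 and 10.46 at day 7, and 53.3 and 72.5 at day 9, and under RB at 1.17 and 0.617, 23.3 and 31.4, and 27.4 and 30.05. At day 5 it was not called in either comparison, and from day 7 all RA and RB libraries were above CT. At day 7, Cyp26b1 was at least 25.1-fold higher with RA and at least 66.7-fold higher with RB than the level of 3 reads over the CT group. The log2 differences from CT were 3.496 at day 7 and 5.62 at day 9 for RA (SE 0.39 each; adjusted p 3.28e-06 and 9.18e-10), and 4.81 and 4.53 for RB (SE 0.39 each; adjusted p 5.37e-09 and 1.55e-09). The RA difference was larger at day 9 than at day 5 by 5.28 for Cyp26b1 (SE 0.56, adjusted p 3.4e-06) and by 3.57 for Dhrs3 (SE 0.62, adjusted p 0.000848), the 2 of 8 genes called in this test, where 7.04% of all genes were called. Cyp26b1 and Dhrs3 had passed the filter in RA and RB libraries alone, so nothing is read from this count. For Cyp26a1 the same change was 1.49 (SE 0.49, adjusted p 0.0605).

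Cyp26c1, the third hydroxylase, stayed low. It was at 0 RPM in all CT libraries but 1 (0.323 at day 9), at 0.299 to 5.06 in the 6 RA libraries and at 0.925 to 5.44 in the 6 RB libraries. At day 7 the groups were 2.97 and 5.06 RPM under RA and 2.92 and 5.44 under RB, which is at least 9.80-fold and 10.2-fold higher than 3 reads over the CT group. Cyp26c1 was called against CT at days 7 and 9 in both conditions, with log2 differences between 1.67 and 2.33. All 4 calls were lost with a pseudocount of 5 RPM (0.57 to 0.86), and that of RB at day 9 also with quantile normalization (0.94, adjusted p 0.0748).

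Of the genes that make retinoic acid, Rdh10 was the one that rose. It stood at 4.03 to 8.41 RPM in the 8 cultured CT libraries. RA gave 8.66 and 4.42 at day 5, 11.0001 and 12.2 at day 7, and 21.1 and 19.7 at day 9, and RB gave 8.40 and 2.47, 22.8 and 26.3, and 52.0 and 57.4. At day 5 the groups overlapped, and at days 7 and 9 the order of the groups was CT, RA, RB with no overlap. The log2 difference of RB from CT was 1.79 at day 7 and 2.65 at day 9 (SE 0.38 each; adjusted p 0.000963 and 3.17e-06). For RA it was 0.77 at day 7 (adjusted p 0.244) and 1.27 at day 9 (SE 0.38, adjusted p 0.0156). That last call was lost with median centring (0.998, adjusted p 0.0498), quantile normalization (0.89, adjusted p 0.0775) or a pseudocount of 5 RPM (0.98), and when any 1 of its 4 libraries was left out (1.18 to 1.35, adjusted p 0.0537 to 0.0844).

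Aldh1a2, the main retinaldehyde dehydrogenase of the embryo, was low throughout and differed between conditions in both directions. CT held 7.33 and 5.97 RPM at day 5, 7.10 and 6.18 at day 7, and 6.75 and 5.50 at day 9. RA held 5.67 and 2.36, 2.97 and 2.70, and 2.52 and 1.37, and RB held 2.80 and 1.54, 0.875 and 1.28, and 8.34 and 13.4. RA and RB were below CT at days 5 and 7, and at day 9 RA lay below CT and RB above it. Aldh1a2 fell with RB at day 7 (log2 difference -1.88, SE 0.39, adjusted p 0.000802) and with RA at day 9 (-1.30, SE 0.39, adjusted p 0.0163), and the RB difference at day 9 was 0.71 (SE 0.39, adjusted p 0.13). The RA call was lost without CT library 1 (-1.17, adjusted p 0.0972) or RA library 2 (-1.01, adjusted p 0.158), and both calls were lost with a pseudocount of 5 RPM (-0.94 and -0.68). Aldh1a1 was not tested in this line: its 22 libraries ranged from 0 to 6.02 RPM, the highest being RA at day 9, whose partner was at 0.945.

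The binding proteins went different ways. Crabp2 was at 7.70 and 5.97 RPM under CT at day 5, 12.0 and 6.80 at day 7, and 16.4 and 7.76 at day 9. RA gave 8.96 and 5.01, 9.51 and 3.04, and 20.8 and 36.9, and RB gave 18.2 and 8.02, 38.5 and 24.7, and 47.3 and 30.6. RB lay above CT at each day, and RA only at day 9. Crabp2 rose with RB at days 7 and 9 (log2 difference 1.66 at each, SE 0.46; adjusted p 0.0079 and 0.00383), and with RA at day 9 the difference was 1.22 (SE 0.46, adjusted p 0.0518). The day 7 call was lost without RB library 1 (1.35, adjusted p 0.0909) or CT library 2 (1.29, adjusted p 0.102), and the day 9 call without RB library 1 (1.36, adjusted p 0.0516) or CT library 2 (1.17, adjusted p 0.0852). Crabp1 moved the other way: at day 9 it was at 44.0 and 46.6 RPM under CT, 15.8 and 20.51 under RA, and 27.4 and 30.05 under RB. Crabp1 fell with RA (-1.29, SE 0.32, adjusted p 0.00496), a call lost without RA library 1 (-1.105, adjusted p 0.0587), and the difference with RB was -0.64 (SE 0.32, adjusted p 0.0986). All 3 groups lay apart.

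Counted together over the genes that passed the filter, RA against CT called 4 of the 8 tested genes at day 7, all higher, where 5.21% of all genes were called, and 7 at day 9, of which 5 were higher and 2 lower, against 16.3%. RB against CT called 7 at day 7, of which 6 were higher and 1 lower, against 19.3%, and 6 at day 9, all higher, against 36.7%. Since Cyp26b1, Cyp26c1 and Dhrs3 passed the filter in RA and RB libraries alone, and Cyp26a1 mainly so, nothing is read from the distance of these counts to the background. The median log2 difference of all genes was 0.10 and 0.20 for RA and 0.22 and 0.19 for RB at these days. The RB difference was larger at day 9 than at day 5 for Cyp26b1 (by 3.63), Rdh10 (2.82), Aldh1a2 (2.004) and Dhrs3 (1.80), 4 of 8 genes called where 29.7% of all genes were. The same limit holds for Cyp26b1 and Dhrs3 in this count. The Dhrs3 change, with an adjusted p of 0.0248, was lost with median centring (1.46, adjusted p 0.0648), with no filter on low values (adjusted p 0.0595) and without any of 4 libraries (1.46 to 1.76, adjusted p 0.0609 to 0.108). The Cyp26b1 change was lost with a pseudocount of 0.1 RPM (3.47, adjusted p 0.0679).

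Other genes of the pathway were counted from fixed lists, chosen with earlier results of these data known. Of 21 known retinoic acid targets 19 were tested, and RA against CT called 3 at day 5, 13 at day 7 and 17 at day 9, all higher, with medians of 0.14, 1.82 and 3.43. RB against CT called 4, 15 and 14, all higher, with medians of 0.30, 2.47 and 2.15. Of all genes, RA called 0.244%, 5.21% and 16.3% at these days, and RB 0.674%, 19.3% and 36.7%. Several of these targets, among them Stra6, Rarb and Hoxb1, reached 5 RPM in RA and RB libraries alone, so their direction against CT was set by the filter. At day 9, Stra6, a retinol uptake receptor, was at 26.7 RPM under RA, 3.998 under RB and 0.161 under CT. Of 33 other retinoid genes, a list that overlaps the targets (Stra6 is in both), 16 were tested, and at day 9 RA called 3 higher (among them Stra6 and the retinol carrier Rbp4) and 1 lower (Dhrs4), while RB called 7 higher and 5 lower, with medians of 0.37 and -0.50. Of the 6 retinoid receptors 5 were tested, and Rarb and Rara were called higher at day 9 in each condition. Under RB this was near the 36.7% of all genes called, and nothing is read from it.

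The markers of other cells also differed between these groups. The summed level of 8 fibroblast and feeder markers was 408 to 493 RPM under CT at day 9, 302 to 444 under RA and 179 to 196 under RB, where Lum was at 0. That of 4 gonadal somatic markers was 0 to 3.21, 4.10 to 8.75 and 11.6 to 23.4, with Nr5a1 at 0 in all, and that of 5 granulosa and ovary stroma markers was 4.18 to 6.58, 24.6 to 26.8 and 18.8 to 42.1. Their part in the differences of the retinoid genes was not tested.

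Set directly against each other, RB and RA differed in no tested retinoid gene past the threshold at day 5, in 2 at day 7 and in 5 at day 9. At day 5, where 0.0421% of all genes were called, 7 of the 8 genes had overlapping groups and log2 differences ran from -0.61 for Aldh1a2 to 0.77 for Crabp2 (SE 0.32 to 0.46; each adjusted p 1.0). At day 7, RB was higher than RA for Crabp2 (38.5 and 24.7 against 9.51 and 3.04 RPM; log2 difference 2.29, SE 0.46, adjusted p 0.00331) and for Cyp26b1 (23.3 and 31.4 against 10.1 and 10.46; 1.31, SE 0.39, adjusted p 0.0405), 2 of 8 genes where 4.62% of all genes were called. The Crabp2 call was lost without RA library 2, the lower one (1.60, adjusted p 0.0938). The Cyp26b1 call was lost with median centring (1.17, adjusted p 0.0606), with a pseudocount of 0.1 RPM (1.39, adjusted p 0.473), with no filter on low values (adjusted p 0.0618) and without any 1 of its 4 libraries (1.109 to 1.52, adjusted p 0.066 to 0.306). The Cyp26a1 groups did not overlap at day 7 (336 and 378 under RB, 254 and 239 under RA), and the difference of 0.53 (SE 0.35) was not called.

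At day 9, 3 of the 4 genes that remove retinoic acid or its precursor were lower with RB than with RA (Cyp26a1, Cyp26b1 and Dhrs3), and 2 that make it were higher. Cyp26a1 stood at 195 and 228 RPM under RB against 488 and 521 under RA (log2 difference -1.26, SE 0.35, adjusted p 0.00534). Dhrs3 stood at 21.4 and 14.2 against 57.3 and 71.4 (-1.81, SE 0.44, adjusted p 0.00173), and Cyp26b1 at 27.4 and 30.05 against 53.3 and 72.5 (-1.09, SE 0.39, adjusted p 0.0289). On the synthesis side, Rdh10 was at 52.0 and 57.4 against 21.1 and 19.7 (1.38, SE 0.38, adjusted p 0.00536), and Aldh1a2 at 8.34 and 13.4 against 2.52 and 1.37 (2.01, SE 0.39, adjusted p 0.000248). None of these 5 genes had overlapping groups, and they are 5 of 8 called where 24.8% of all genes were called. With a pseudocount of 0.1 RPM the Cyp26a1, Cyp26b1 and Dhrs3 calls were lost (-1.26, -1.112 and -1.87; adjusted p 0.199, 0.414 and 0.0654). The Cyp26b1 call was also lost with a pseudocount of 5 RPM (-0.995) and without RA library 2 (-0.87, adjusted p 0.181) or either RB library (-1.02 and -1.15, adjusted p 0.126 and 0.0964). Crabp1 (0.65), Crabp2 (0.44) and Cyp26c1 (2.38 and 2.95 against 2.52 and 4.92 RPM; -0.32, adjusted p 0.581) were not called.

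The turn between day 7 and day 9 was tested as a change of the RB against RA difference, a test chosen after the values had been seen. It was -1.79 for Cyp26a1 (SE 0.49, adjusted p 0.0225), -2.40 for Cyp26b1 (SE 0.56, adjusted p 0.00915), -2.63 for Dhrs3 (SE 0.62, adjusted p 0.00957) and 2.90 for Aldh1a2 (SE 0.56, adjusted p 0.00254), 4 of 8 genes where 7.81% of all genes were called. For Rdh10 it was 0.36 (adjusted p 0.72). The Cyp26a1 change was lost without any 1 of the 8 libraries (-1.68 to -1.90, adjusted p 0.0577 to 0.0763), with a pseudocount of 0.1 RPM (adjusted p 0.339) and with no filter on low values (adjusted p 0.052). The Dhrs3 change was lost without RB day 9 library 2 (-2.35, adjusted p 0.0589), and it and the Cyp26b1 change with a pseudocount of 0.1 RPM (-2.71 and -2.499, adjusted p 0.142 and 0.32). Among the 19 retinoic acid targets tested, RB against RA called 4 higher at day 7 and 7 lower at day 9 (median 0.37 and -0.84). Of all genes, 4.62% were called at day 7 and 24.8% at day 9. Hoxb2, Hoxb1, Stra6 and Tgm2 were the lowest targets at day 9 (-3.11, -2.53, -2.44 and -2.06).

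Wild-type cells of the DBA/2:C57BL/6 background went through RB culture as well. Wild-type Cyp26a1 was at 0 and 0 RPM at day 3, 16.6 and 22.4 at day 5, 327 and 277 at day 7, and 258 and 245 at day 9. At day 9 it was at least 1488-fold higher than 3 reads over the day 3 group, in which neither library held a read. From CT day 3 to RB day 9 all 7 tested genes rose, where 43.7% of all genes were called in either direction: Cyp26a1 by 7.98, Cyp26b1 by 4.78, Rdh10 by 3.61, Dhrs3 by 3.35, Crabp2 by 2.30, Crabp1 by 1.74 and Aldh1a2 by 1.56 on the log2 scale (SE 0.34 to 0.54). Cyp26a1, Cyp26b1 and Dhrs3 had passed the filter under RB alone, and Aldh1a2 mainly through the wild-type day 9 libraries. Nothing is therefore read from the distance of this count to the background. The Aldh1a2 call was lost with quantile normalization (0.89, adjusted p 0.124), with a pseudocount of 0.1 or 5 RPM (1.89 and 0.90) and without day 9 library 1 (1.32, adjusted p 0.0978) or day 3 library 2 (1.405, adjusted p 0.0821). The Crabp1 call was lost without day 3 library 2 (0.90, adjusted p 0.141). Day and factor change together in this comparison and cannot be told apart. From the first to the second group the fibroblast and feeder marker sum went from between 630 and 692 RPM to between 217 and 283, with Lum at 0 in both groups. The blood and endothelial sum went from between 135 and 148 to between 21.5 and 34.4, with Hbb-y, Hba-x, Hbb-b1 and Ptprc at 0 in both groups. The gonadal somatic sum went from between 0 and 0.512 to between 12.6 and 15.45, with Nr5a1 at 0 in both groups, and the granulosa and ovary stroma sum from between 3.33 and 7.53 to between 19.3 and 30.4. Their part in the rise was not tested.

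Loss of Stra8, the gene through which retinoic acid is linked to meiosis, went with lower Cyp26a1 at day 7 and higher Cyp26a1 at day 9. The 4 knockout libraries (2 of SK1, 1 each of SK2 and SK3) are given here from lowest to highest. At CT day 3 and RB day 5 none of the 7 tested genes was called, where 0.00819% and 0.0164% of all genes were. Knockout Cyp26a1 was at 105, 124, 152 and 154 RPM at day 7, against 327 and 277 in the wild type, and at 499.5, 503, 522 and 591 at day 9, against 258 and 245. All knockout libraries were below the wild type at day 7 and above it at day 9. The log2 differences were -1.19 (SE 0.31, adjusted p 0.00743) and 1.07 (SE 0.31, adjusted p 0.00675). The change between the days, a test also chosen after the values had been seen, was 2.25 (SE 0.44, adjusted p 0.00107), lost with a pseudocount of 0.1 RPM (2.26, adjusted p 0.104). The day 7 call was lost without wild-type library 1 (-1.07, adjusted p 0.0922), and the day 9 call without wild-type library 2 (1.03, adjusted p 0.0658) and with median centring (0.99, adjusted p 0.00871). Both were lost with a pseudocount of 0.1 RPM (adjusted p 0.198 and 0.188).

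**Figure D2:**
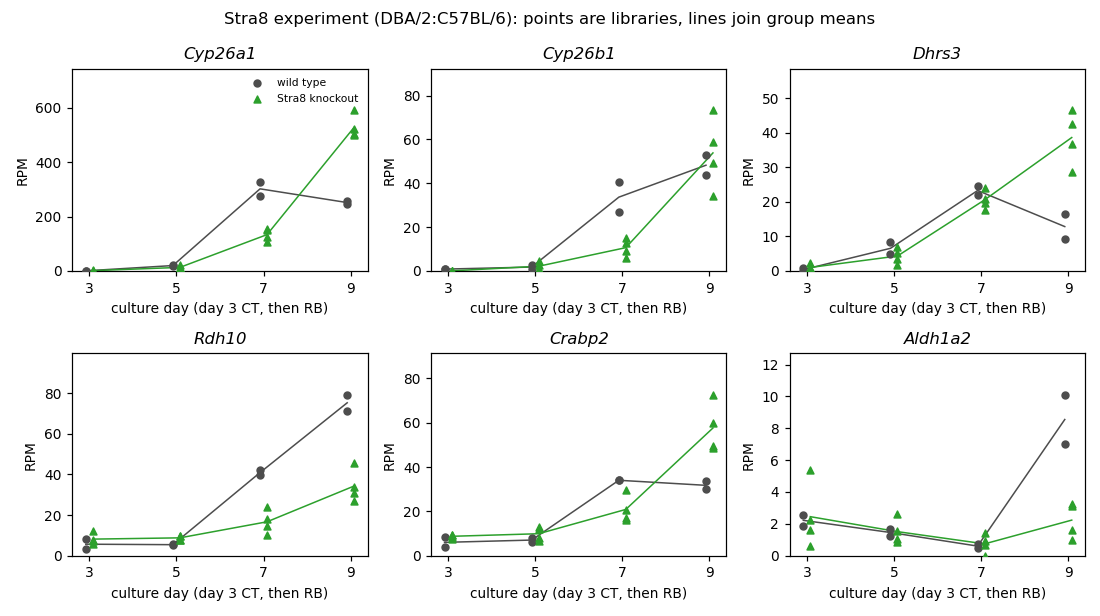
RPM (linear axis) of 6 genes by culture day in the Stra8 experiment, with circles for wild-type libraries, triangles for knockout libraries and lines through group means; day 3 is CT and later days are RB. Knockout Cyp26a1 lies below the wild type at day 7 and above it at day 9, and knockout Rdh10 lies below it at both days.

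Cyp26b1 and Dhrs3 each took 1 side of that pattern. Cyp26b1 was at 5.96, 8.97, 12.6 and 14.8 RPM in the knockout at day 7 against 40.6 and 26.7 in the wild type, and fell (log2 difference -1.62, SE 0.47, adjusted p 0.0143). At day 9 it overlapped (34.0, 49.3, 58.7 and 73.3 against 52.9 and 43.5; 0.11). Dhrs3 overlapped at day 7 (17.5, 19.6, 20.9 and 24.1 against 24.6 and 21.9; -0.18). At day 9 it was at 28.6, 36.7, 42.6 and 46.5 in the knockout against 9.23 and 16.4, all knockout libraries above the wild type (1.55, SE 0.41, adjusted p 0.00312). The Cyp26b1 call was lost without wild-type library 1 (-1.33, adjusted p 0.164) and the Dhrs3 call without wild-type library 1 (1.16, adjusted p 0.0928), and both with a pseudocount of 0.1 RPM (-1.71 and 1.62, adjusted p 0.195 and 0.121). Cyp26c1 was not tested in this experiment and was at 3.86 to 6.70 RPM in the knockout at day 9 against 2.52 and 3.75.

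Of the synthesis genes, Rdh10 was lower in the knockout at days 7 and 9 and Aldh1a2 at day 9. Rdh10 was at 10.2, 14.6, 17.9 and 24.1 RPM at day 7 against 42.0 and 39.8, and at 26.8, 30.9, 33.7 and 45.8 at day 9 against 71.4 and 79.1. The groups did not overlap at either day. Rdh10 fell by 1.30 at day 7 and by 1.14 at day 9 on the log2 scale (SE 0.31 each; adjusted p 0.00387 and 0.00465), the second call being lost without wild-type library 2 (-1.06, adjusted p 0.0608). Its knockout difference changed from day 3 to day 9 by -1.65 (SE 0.45, adjusted p 0.00706), the 1 of 7 genes called in that test, where 14.9% of all genes were, and this was lost without wild-type day 3 library 2 (-1.1106, adjusted p 0.121). Aldh1a2 was at 0.957, 1.62, 3.09 and 3.27 RPM at day 9 against 10.1 and 7.02, and fell (-1.62, SE 0.47, adjusted p 0.00652). Aldh1a2 had passed the filter mainly through these wild-type libraries, so the call describes it but carries no support of its own. At day 7 the Aldh1a2 groups overlapped, with 0, 0.681, 0.897 and 1.403 RPM against 0.724 and 0.486 (0.06, adjusted p 0.951). Its call was lost without wild-type library 1 (-1.38, adjusted p 0.0894) and with a pseudocount of 0.1 or 5 RPM (-2.02 and -0.91). Aldh1a1 was at 0 in all 4 knockout libraries at day 9 and at 0 and 1.405 in the wild type.

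Crabp2 was higher in each knockout library at day 9 (48.8, 49.5, 59.7 and 72.6 RPM against 33.6 and 29.97) and lower in each at day 7 (16.2, 17.2, 20.6 and 29.6 against 34.1 and 34.0), but neither difference was called (0.82 and -0.72, SE 0.29). The change between the days was called (1.54, SE 0.41, adjusted p 0.0131), and was lost without wild-type day 7 library 1 (1.54, adjusted p 0.0502) or day 9 library 2 (1.46, adjusted p 0.0655). Crabp1 was not called at any day. The knockout comparisons thus called 3 of 7 tested genes at day 7, where 8.73% of all genes were called, and 4 at day 9 (2 higher, 2 lower), against 19.1%. Aldh1a2, lower at day 9, passed the filter mainly through wild-type day 9 libraries, so its call adds nothing to that share. The change from day 7 to day 9 called 3 of 7 (Cyp26a1, Dhrs3 and Crabp2), against 7.65%, and the Dhrs3 change (1.72, SE 0.58, adjusted p 0.0467) was lost under 14 alternatives (1.34 to 2.11, adjusted p 0.0535 to 0.345).

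Of the 21 retinoic acid targets 19 were tested in the knockout, and at day 9 there were 13 higher and 1 lower (median 1.64, against 0.09 for all genes), while at day 7 none was higher and 3 were lower. The 1 lower target at day 9 was Stra8 itself, and the 3 at day 7 were Stra8, Meis1 and Rec8. Of all genes, 19.1% were called at day 9 and 8.73% at day 7. Hoxb1 was at 40.2 against 1.12 RPM (4.25) and Stra6 at 49.8 against 7.33 (2.74). A gene as low in the wild type as Hoxb1 can pass the filter through the knockout libraries in which it is high. Nothing is therefore read from the distance of these counts to the shares of all genes. Of 17 other retinoid genes tested at day 9, 5 were higher and 1 was lower (median 0.73). Bcmo1, a carotenoid cleavage enzyme, was at 7.83 RPM and at 0 in the wild type, so the same limit holds for it. The acyltransferase Dgat1 was at 33.4 against 128. The fibroblast and feeder marker sum was 276 to 394 RPM in the knockout at day 9 and 217 to 283 in the wild type, with Lum at 0 in both groups, and at day 7 it was 477 to 533 and 330 to 340. The sum of 8 blood and endothelial markers at day 9 was 65.4 to 108 and 21.5 to 34.4. Hbb-y, Hba-x, Hbb-b1 and Ptprc were at 0 in both groups, and Cdh5 in the wild type, so these sums rest on the remaining genes. At day 7 the gonadal somatic sum was lower in the knockout (1.35 to 2.78 RPM against 6.52 to 6.80), with Nr5a1 at 0 in both groups. The granulosa and ovary stroma sum was lower too (5.38 to 15.7 against 21.0 to 24.3). At day 9 both overlapped (6.95 to 14.3 against 12.6 to 15.45, and 23.6 to 38.3 against 19.3 to 30.4). The part of all these markers in the differences was not tested.

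In the embryo the degrading enzymes were nearly absent from germ cells. Cyp26c1 was at 0 RPM in all 22 libraries. The highest values were 3.87 for Cyp26a1 and 2.93 for Dhrs3, both at E9.5, and 3.18 for Cyp26b1, in males at E15.5. None of the 4 genes was tested. Cyp26a1 in females of E14.5, 1.47 and 2.19 RPM, was far under the 195 and 228 of RB at day 9, values that come from separate experiments and were not compared by a test.

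The binding protein Crabp2 had the widest course. It was at 116 and 121 RPM at E9.5, 6.76 and 9.17 at E10.5, and 5.77 and 7.70 at E11.5. Females then held 18.4 and 21.5 at E12.5, 22.2 and 26.9 at E13.5, 14.1 and 5.48 at E14.5, and 1.83 and 2.51 at E15.5. Males held 1.86 and 3.09, 6.66 and 7.88, 41.6 and 48.6, and 49.7 and 41.3 at the same stages. Females lay above males at E12.5 and E13.5 and below them at E14.5 and E15.5, with no overlap at any stage. The log2 differences, female against male, were 2.61, 1.63, -2.21 and -3.88 (SE 0.33 each; adjusted p 1.11e-05, 0.000552, 2.8e-06 and 2.74e-10). The change from E12.5 to E15.5 was -6.49 (SE 0.46, adjusted p 5.13e-11). This change, like the others from E12.5 to E15.5 given below, crosses the switch of sorting reporter after E13.5. So does the turn from females above to females below. Stage and reporter cannot be told apart there.

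**Figure D3:**
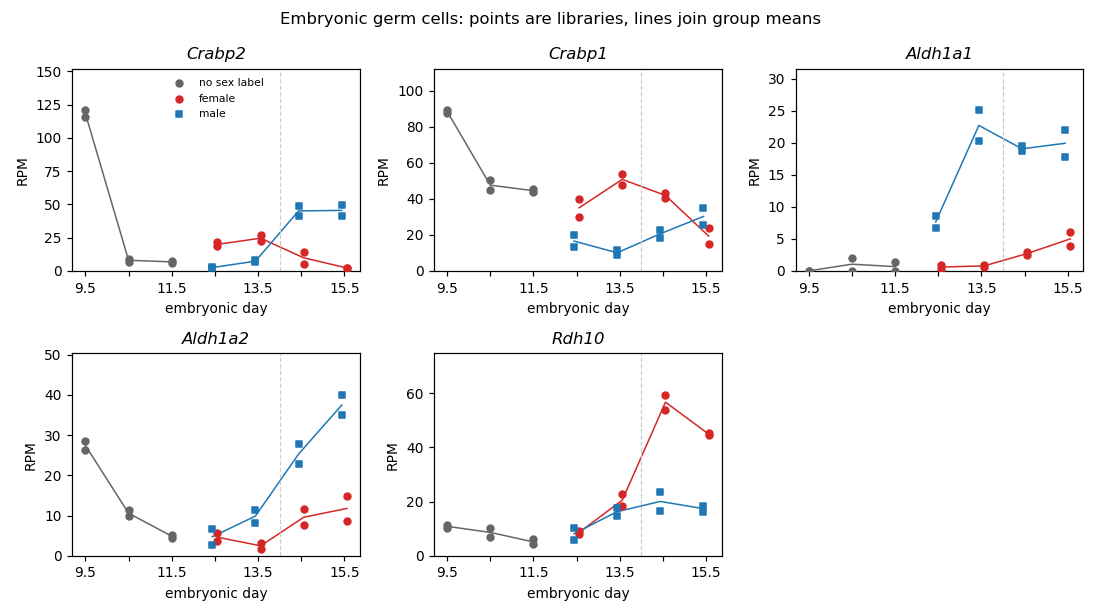
RPM (linear axis) of 5 genes by embryonic day in germ cells, with points for libraries and lines through group means; grey stands for cells with no sex label, red circles for females, blue squares for males, and the dashed line marks the change of sorting reporter. Crabp2 falls from 116 and 121 RPM at E9.5 to under 10 at E11.5 and then crosses over between the sexes.

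Crabp1 also favoured females early. It was at 87.7 and 89.7 RPM at E9.5, 45.0 and 50.3 at E10.5, and 43.6 and 45.6 at E11.5. Females held 40.0 and 30.2, 47.9 and 53.9, 43.3 and 40.5, and 23.7 and 15.0 from E12.5 to E15.5, and males held 20.1 and 13.0, 8.57 and 11.49, 18.4 and 22.9, and 25.6 and 34.9. Females were above males up to E14.5 and below them at E15.5. The log2 differences were 1.05 (SE 0.24, adjusted p 0.00463), 2.24 (adjusted p 1.99e-07), 0.996 (just under the threshold of 1, adjusted p 0.000811) and -0.63 (adjusted p 0.0214), so E12.5 and E13.5 were called. The E12.5 call was lost without male library 2 (0.76, adjusted p 0.102) or female library 1 (0.86, adjusted p 0.0648) with a pseudocount of 5 RPM (0.90) and with quantile normalization (just under 1). The change from E12.5 to E15.5 was -1.69 (SE 0.34, adjusted p 0.000163).

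The retinaldehyde dehydrogenases Aldh1a1 and Aldh1a2 were higher in male germ cells. Aldh1a1 was at 6.70 and 8.58 RPM in males at E12.5, 25.1 and 20.4 at E13.5, 18.7 and 19.4 at E14.5, and 17.8 and 22.1 at E15.5. Females held 0.348 and 0.847, 0.577 and 0.962, 2.95 and 2.47, and 6.08 and 3.90, below males at every stage. The log2 differences were -2.44, -3.75, -2.44 and -1.82 (SE 0.45 each; adjusted p 0.000717, 1.21e-06, 4.96e-05 and 0.000981), and they did not change from E12.5 to E15.5 beyond the test (0.62, adjusted p 0.412). With a pseudocount of 0.1 RPM the E15.5 call was lost (-2.001, adjusted p 0.115). Aldh1a7, a close copy of Aldh1a1, was at 1.31 RPM or less in the 22 libraries, and how reads shared by such copies were assigned is not given in the sources used here.

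Aldh1a2 was at 26.4 and 28.5 RPM at E9.5, 9.87 and 11.3 at E10.5, and 5.25 and 4.49 at E11.5. Males held 6.70 and 2.75 at E12.5, 8.25 and 11.49 at E13.5, 27.7 and 22.9 at E14.5, and 40.0 and 34.9 at E15.5, and females held 5.56 and 3.67, 1.73 and 3.21, 7.66 and 11.504, and 14.9 and 8.63. The sexes overlapped at E12.5 (log2 difference 0.04) and lay apart afterwards, with females lower by -1.67, -1.33 and -1.63 (SE 0.36 each; adjusted p 0.00116, 0.00261 and 0.000351). The change from E12.5 to E15.5 was -1.68 (SE 0.52, adjusted p 0.00747), lost without male E12.5 library 2 (-1.16, adjusted p 0.0672) or female E15.5 library 2 (-1.32, adjusted p 0.0512). The E13.5 call was lost with a pseudocount of 5 RPM (-0.99).

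Rdh10, which acts just before these enzymes, favoured females late. It was at 10.4 and 11.4 RPM at E9.5, 10.1 and 7.08 at E10.5, and 6.04 and 4.17 at E11.5. Females held 9.04 and 8.19, 22.8 and 18.3, 53.9 and 59.4, and 44.4 and 45.4, and males 5.95 and 10.3, 17.8 and 14.8, 23.5 and 16.6, and 18.5 and 16.2. The sexes overlapped at E12.5 and stood apart from E13.5, where the difference of 0.32 was not called. At E14.5 and E15.5 females were higher by 1.47 and 1.32 (SE 0.29 each; adjusted p 8.53e-05 and 0.000247). The change from E12.5 to E15.5 was 1.21 (SE 0.40, adjusted p 0.013), lost without male E12.5 library 2 (0.86, adjusted p 0.0931).

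Female against male thus called 3 of 5 tested genes at E12.5 (2 higher, 1 lower), where 6.53% of all genes were called, and 4 at E13.5 (2 higher, 2 lower), where 16.7% were. It called 4 at E14.5 and 4 at E15.5 (1 higher, 3 lower each), where 48.3% and 53.6% were. Aldh1a1, among the lower genes at each stage, passed the filter mainly through male libraries, so its calls add nothing to these shares. The change from E12.5 to E15.5 called 4 of 5 (Rdh10 higher; Aldh1a2, Crabp1 and Crabp2 lower), against 49.9% of all genes, so at the late stages the share of these genes was nearer to the background. At E12.5 the retinoic acid targets called were 4 of 15, all higher in females (among them Stra8, Rec8 and Gbx2). At E15.5 there were 3 higher and 5 lower, near the 53.6% of all genes called. Of the retinoid receptors tested, none of 4 was called at E12.5, and Rarg, Rara and Rxra were lower in females at E15.5 (-2.75, -2.46 and -2.35).

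Sertoli cell markers were at higher sums in the male libraries at each stage from E12.5, and Leydig cell markers at E14.5 and E15.5. At E14.5 the sum of 6 Sertoli markers was 9.64 to 14.9 RPM in males and 0.884 to 2.47 in females, with Amh and Cldn11 at 0 in both. The sum of 5 Leydig and steroid cell markers was 38.3 to 83.8 in males and 5.75 to 8.25 in females. At E12.5 the Sertoli sum was 8.19 to 9.27 in males and 0.0941 to 1.74 in females, while the Leydig sum was 26.8 to 28.5 and 29.3 to 29.5. At E13.5 the Leydig sum was lower in males (19.7 to 21.3 against 31.1 to 32.6). At E11.5, with no sex label, it was 44.5 to 56.3 with Cyp17a1 and Hsd3b1 at 0, so it is no measure of Leydig cells alone. Other somatic sums were higher in males too: at E14.5 the gonadal somatic sum was 14.9 to 18.1 in males and 8.54 to 9.59 in females, and the fibroblast sum 315 to 397 and 168 to 203.5. At E15.5 the granulosa and ovary stroma sum was 29.3 to 30.01 and 10.95 to 13.1. The part of these markers in the sex differences of Aldh1a1, Aldh1a2 and Crabp2 was not tested.

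Across stages, Crabp2 and Aldh1a2 fell from E9.5 to E11.5 (log2 differences -3.96 and -2.28, SE 0.33 and 0.36; adjusted p 5.28e-09 and 6.65e-05). These were 2 of 5 genes called, where 11.4% of all genes were. Crabp1 (-0.98) and Rdh10 (-0.97) missed the threshold on size, and Aldh1a1 was at 0 at E9.5 and 0 and 1.31 RPM at E11.5. The sum of 8 blood and endothelial markers was 3022 to 3220 RPM at E9.5 and 114 to 127 at E11.5, and that of 7 early somatic markers was 69.9 to 71.5 and 18.1 to 26.0, and their part in the fall was not tested. From E11.5 to E15.5 females rose in Rdh10 (2.93), Aldh1a1 (1.95) and Aldh1a2 (1.08) and fell in Crabp2 (-1.29) and Crabp1 (-1.19), 5 of 5 called where 52.6% of all genes were. Males rose in Aldh1a1 (3.77), Aldh1a2 (2.71), Crabp2 (2.59) and Rdh10 (1.60), 4 of 5 where 47.1% were, and Crabp1 was not called (-0.56). Aldh1a1 had passed the filter mainly through male libraries, so its male call carries no support of its own. Over the same stages the male Sertoli sum went from between 0.642 and 1.71 RPM to between 20.8 and 21.9, the gonadal somatic sum from between 0.962 and 2.36 to between 11.3 and 12.97, and the granulosa and ovary stroma sum from between 2.10 and 4.68 to between 29.3 and 30.01. The fibroblast sum went from between 395.5 and 408 at E11.5, with Col1a2, Dcn, Lum, Postn and Thy1 at 0, to between 166 and 193 in E15.5 females. Their part in these changes was not tested. The female Aldh1a2 call was lost with median centring (0.99), with quantile normalization (0.98), with a pseudocount of 5 RPM (0.74) and without E11.5 library 2 (0.99, adjusted p 0.0602) or female E15.5 library 1 (0.72, adjusted p 0.156). A pseudocount of 5 RPM also took the female calls of Aldh1a1 (0.82) and Crabp2 (-0.71), and the Crabp1 call was lost without female E15.5 library 2 (-0.88).

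**Figure D4:**
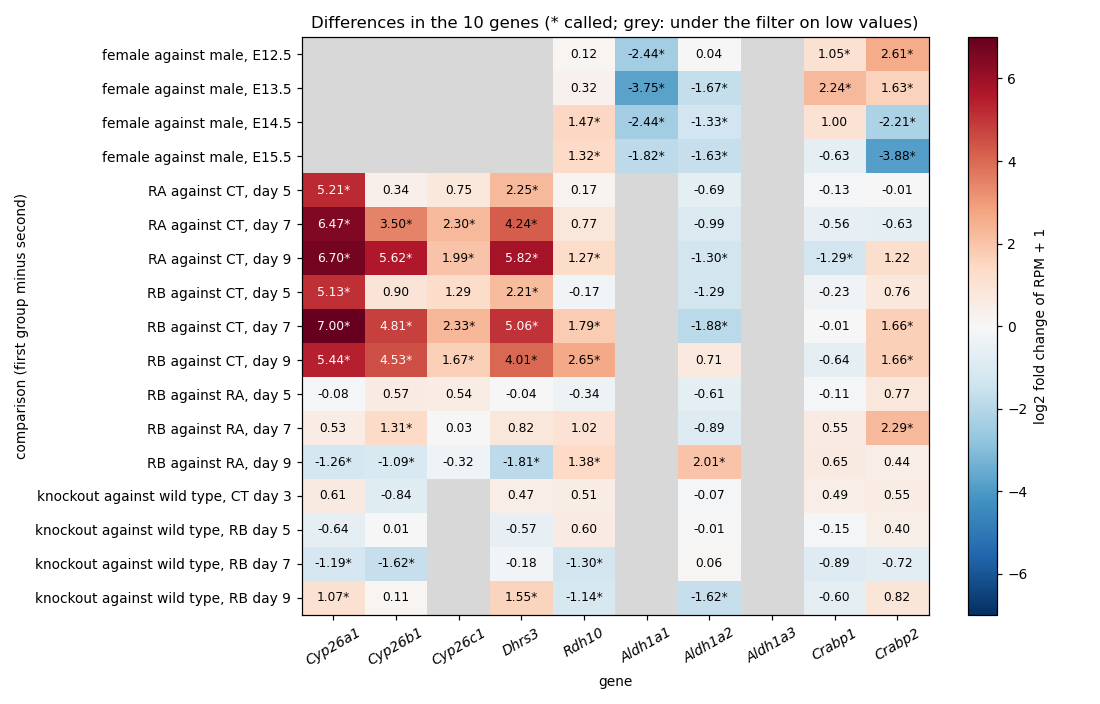
Log2 fold change of RPM + 1 for the 10 genes (columns) in 17 comparisons (rows), first group minus second, on a colour scale centred on 0, with a star where a difference was called and grey where the gene was under the filter. The Cyp26a1, Cyp26b1 and Dhrs3 columns carry the differences of RA and RB from CT, up to 6.997, and the Aldh1a1 and Crabp2 columns those between the sexes, down to -3.88.

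Cyp26a1 and Rdh10 were also read in the single libraries. In 0R3B, a condition that the labels do not spell out, Cyp26a1 was at 301 RPM, Cyp26b1 at 54.0, Dhrs3 at 23.8, Rdh10 at 88.6 and Cyp26c1 at 7.07. Its Rdh10 value was above that of every other library. In the C57BL/6 line the culture day was 0 for d4c0, 2 for c0CT and c0RB, 7 for c7, and 9 for c7CT and c7RB. Cyp26a1 was at 0 RPM in the library d4c0, 0.604 in c0CT and 11.3 in c0RB (95% exact Poisson interval 8.16 to 15.3). It was at 17.2 in c7 (13.2 to 21.9), 17.4 in c7CT (13.1 to 22.6) and 191.9 in c7RB (179 to 206). Dhrs3 was at 21.97 RPM, Cyp26b1 at 13.52 and Crabp2 at 15.4 in c7RB, the highest of the 6 libraries for each. With 1 library a group there is no replicate check.

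Likeness of pattern was measured as Pearson r of group means of log2(RPM + 1) over all 37 groups, among 8825 genes that reach 20 RPM in a group mean, as a description, and Cyp26c1 and Aldh1a3 fell under that level. Cyp26a1 and Dhrs3 were each other's most alike gene (r = 0.959), followed by Rarb and Acp5 for Cyp26a1 (0.927 each) and by Rarb (0.952) for Dhrs3. Cyp26b1 was most like Dkk3 (0.935), Tgfb1i1 (0.907) and Klhdc8a (0.904), and its r with Cyp26a1 was 0.836. Rdh10 was most like Exd2 (0.938), Ahcyl2 (0.935) and Tmem129 (0.930), and its r with Cyp26a1 was 0.525. Crabp2 (Palm, 0.838), Crabp1 (Polr2f, 0.813), Aldh1a1 (Pou6f1, 0.787) and Aldh1a2 (Mfap2, 0.721) had no gene above 0.84. Groups of 1 experiment share a cell line or strain, and these values carry no test.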

How the data were processed

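The 3′ ends of RNA from sorted mouse germ cells and PGCLCs were sequenced in 75 libraries. The authors deposited 1 signal table of RPM, reads scaled to a common library size, for 26218 genes and 96 spike-in rows, with no scaling by length. The submitters' processing notes name cutadapt 1.11, TopHat 1.4.1, Bowtie 1.0.1, Cufflinks 2.2.0 and the mm10 build. In each deposited column 81.0 to 93.2% of the low values were whole multiples of 1 read within 0.05 reads, which gave the estimated depths of 1080000 to 15600000 reads, but too few were whole for a count test. The 2777 values below 0.001 RPM were set to 0. Spike-in signal stood in 58 libraries and was not used for scaling. Log2(RPM + 1) of genes with at least 5 RPM in 2 libraries (embryo 12567, 129S1:C57BL/6 line 11873, Stra8 libraries 12206) was fitted per experiment with limma 3.58.1 in R 4.3.3 (prior spread with a trend on the mean, residual degrees of freedom 11, 11 and 16). P-values were adjusted by Benjamini-Hochberg over all genes tested. Other steps used Python 3.11.15 with pandas 2.3.3, numpy 2.4.6, scipy 1.17.1 and matplotlib 3.10.9. The scripts were tested on simulated data.

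Groups came from the labels, and same-numbered libraries were not paired. The 10 genes, the lists and the tests were chosen with earlier results of these data known. All 10 genes are reported, of each list at most the 4 called genes with the largest absolute difference are named, and alike genes are the 3 with the highest r (predicted genes left out). Some genes that these rules would name are not reported here. Alternatives were pseudocounts of 0.1 and 5 RPM, no filter, a filter at 20 RPM, median centring, quantile normalization, no trend, a fit of only the groups compared, the 2 SK1 libraries averaged, a replicate block and leaving out each library.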

Additional observations from a re-analysis of the deposited data

Results flagged for a closer look

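Over 33 sets of 4 knockout values, each for 1 gene in 1 group, 2 values stood far from the other 3. By chance about 1 set in 20 gives such a value, which is near this share, so nothing is read from the count. Both were of Cyp26a1: 2.35 RPM (SK3) at CT day 3, with the others between 0 and 0.383, and 21.4 RPM (SK1) at RB day 5, with the others between 9.46 and 10.1. In that SK3 library 3 reads stand at 1.76 RPM, so its value is near the read floor. The other values given here are changes of a difference, on the log2 scale, that passed the test of the change itself.

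The female to male difference changed between E12.5 and E15.5 by 1.21 for Rdh10, -1.68 for Aldh1a2, -1.69 for Crabp1 and -6.49 for Crabp2. From day 5 to day 9 the difference of RA from CT changed by 5.28 for Cyp26b1 and 3.57 for Dhrs3. That of RB from CT changed by 3.63 for Cyp26b1, 1.80 for Dhrs3, 2.82 for Rdh10 and 2.00 for Aldh1a2. From day 7 to day 9 the difference of RB from RA changed by -1.79 for Cyp26a1, -2.40 for Cyp26b1, -2.63 for Dhrs3 and 2.90 for Aldh1a2. The difference of the Stra8 knockout from the wild type changed by -1.65 for Rdh10 from day 3 to day 9. From day 7 to day 9 it changed by 2.25 for Cyp26a1, 1.72 for Dhrs3 and 1.54 for Crabp2.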

How the results depend on the processing

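Of 201 tests of single retinoid genes 96 were called, and 50 of these calls held under every alternative run. No called difference changed its sign. With a pseudocount of 0.1 RPM the number of retinoid genes called went from 2 to 1 for RA and for RB against CT at day 5, from 2 to 1 and from 5 to 2 for RB against RA at days 7 and 9, and from 3 to 1 and from 4 to 1 for the knockout at days 7 and 9. The changes from day 7 to day 9 went from 4 to 1 (RB against RA) and from 3 to 1 (knockout). With a pseudocount of 5 RPM the number went from 5 to 2 in females from E11.5 to E15.5, from 2 to 1 for CT from day 3 to 9, from 2 to 1 for RA and for RB at day 5, from 7 to 4 for RA at day 9, and from 1 to 2 for the knockout change from day 3 to 9. With no filter on low values it went from 2 to 4 from E9.5 to E11.5 and from 2 to 1 for CT from day 3 to 9, RA and RB at day 5, and RB against RA at day 7. Median centring gave 4 in place of 2 from E9.5 to E11.5 and 1 in place of 2 for RB against RA at day 7. Quantile normalization gave 4 in place of 2 for the RA change and 2 in place of 1 for the knockout change from day 3 to 9. With no trend CT from day 3 to 9 had 1. With only the groups compared, CT from day 0 to 3 had 0, CT from day 3 to 9 had 1, and RA and RB at day 5 had 1 each. The cause was not tested.

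Leaving out 1 library gave 2 to 3, 4 to 4, 4 to 5 and 4 to 4 called genes for the sexes from E12.5 to E15.5, 2 to 3 from E9.5 to E11.5, and 4 to 5 and 4 to 4 for the female and male stages. It gave 0 to 1 and 0 to 2 for CT from day 0 to 3 and from 3 to 9. At days 5, 7 and 9 it gave 1 to 2, 3 to 4 and 5 to 6 for RA, 1 to 2, 6 to 7 and 5 to 6 for RB, and 0 to 0, 0 to 1 and 4 to 5 for RB against RA. The knockout had 0 to 0 at days 3 and 5, 1 to 3 at day 7 and 2 to 4 at day 9, and the wild type from day 3 to 9 had 5 to 7. The tests of changes had 2 to 4 (sexes), 2 to 3 (RA), 3 to 4 (RB), 0 to 2 (knockout from day 3), 2 to 4 (RB against RA) and 1 to 3 (knockout from day 7).

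The replicate numbers did not meet the bar for pairing, a correlation above 0.1 in every pair: 0 of 55 pairs in the embryo, 11 of 55 in the 129S1:C57BL/6 line and 4 of 28 in the Stra8 experiment reached it, with a highest value of 0.239 in the 129S1:C57BL/6 line. With the replicate block no call was lost and 3 were gained, all in the 129S1:C57BL/6 line: RA against CT at day 9 had 8 called genes (Crabp2 added), the RA change from day 5 had 3 (Cyp26a1 added) and the change of RB against RA from day 7 had 5 (Crabp2 added). Depth limits the lowest genes: 3 reads are worth up to 2.78 RPM, which is near the levels of Cyp26c1.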
